A study of Mus musculus with 6 samples.

Results

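The genes of major histocompatibility complex (MHC) antigen presentation were examined in muscle stem cells (MuSCs) of mice treated with resolvin D1 (RvD1), a lipid mediator made from docosahexaenoic acid, or with vehicle. The 10 genes were taken by symbol from the 49671 genes in the files, with earlier results of these data known. They comprise 6 of class I presentation (H2-K1, H2-D1, B2m, Tap1, Tap2, and Tapbp) and 4 of class II presentation (H2-Aa, H2-Ab1, H2-Eb1, and Cd74). The comparison addresses whether RvD1 altered genes that myogenic cells themselves express, and how much class II transcript, taken as a trace of other cells, the sorted cells held.

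Class I molecules display peptides from the cytosol to CD8+ T cells, and nearly all nucleated cells make them. A heavy chain pairs with B2m, and peptides reach it through the Tap1-Tap2 transporter with tapasin (Tapbp) as a bridge. Class II molecules display peptides from endosomes to CD4+ T cells and are made mainly by dendritic cells, B cells, and macrophages, where the invariant chain Cd74 occupies the groove until a peptide is loaded. Mature muscle fibers have little class I and no class II at their surface, and interferon-γ can raise both.

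Each of the 6 libraries came from 1 female C57BL/6 mouse of 4 to 6 months, and 3 mice had received RvD1 and 3 vehicle. Both TA muscles of every mouse, in both groups, had been injured with BaCl2 (50 μL at 1.2% per limb), a salt that kills myofibers, and were collected at day 3. RvD1 was injected daily at 100 ng, and the other group received 0.1% ethanol as vehicle. MuSCs were collected by FACS as cells with CXCR4 and β1-integrin and without Ter119, CD45, Sca-1, and CD11b, so the gate was set against leukocytes. The sample labels also list CD31, an endothelial marker, among the antigens selected against, and the study's Methods do not. Total expected counts ranged from 16148026 to 28149176 per library, and 3 counts, the smallest level taken as detectable, corresponded to 0.107 to 0.186 CPM (counts scaled to a common library total). This floor covers counting error only. In TPM, a level scaled for transcript length and library, the 10 myogenic markers summed to 2815 to 3835 per library, with Myod1 between 238.88 and 469.99. The 6 fibro-adipogenic markers summed to 233 to 545 TPM, and Dcn, at 182 to 450 TPM, exceeded Myod1 in RvD1 replicate 1. RvD1 replicate 1 stood apart from the other libraries, with the highest level for 30.6% and the lowest for 29.5% of the 14494 genes tested, and the results it moved most are also given without it.

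Of the genes, 8 lie in the MHC on chromosome 17 of GRCm38. H2-K1 spans 33996017 to 34000347, and H2-D1 spans 35262730 to 35267499. Tapbp lies at 33915899 to 33929292, Tap1 at 34187553 to 34197225, and Tap2 at 34203527 to 34216321. The class II chains follow, with H2-Ab1 at 34257689 to 34269419, H2-Aa at 34282744 to 34287823, and H2-Eb1 at 34305867 to 34316674. B2m lies on chromosome 2, at 122147686 to 122153083. Exons of Tap1, Tap2, and Tapbp are overlapped by genes on the opposite strand (Psmb9 for Tap1, Gm15821 and Gm20496 for Tap2, and Gm19412 for Tapbp), and reads of such a pair cannot be told apart without strand. The study calls its reads single-stranded and does not state whether strand was used in counting. Tapbp also shares exonic sequence with Zbtb22, and Cd74 with Mir5107, on the same strand, where strand does not separate them.

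Both classes are controlled through promoters that carry an inverted CCAAT box, the binding site of NF-Y, and class I promoters also carry sites of the NF-kB and IRF families. The 250 bases before the start of transcription are shown for a class I heavy chain, the class I light chain, and an α and a β chain of class II, because the levels below contrast these classes. The α and β chains shown belong to different class II molecules. Capitals mark CCAAT, GGGNNTTCC (NF-kB), and GAAANNGAA (IRF) on either strand (reverse complements ATTGG, GGAANNCCC, and TTCNNTTTC), and none of the matches overlap. Sequences are from RefSeq on GRCm38.p6.
H2-K1, chr17:34000348-34000597, minus strand: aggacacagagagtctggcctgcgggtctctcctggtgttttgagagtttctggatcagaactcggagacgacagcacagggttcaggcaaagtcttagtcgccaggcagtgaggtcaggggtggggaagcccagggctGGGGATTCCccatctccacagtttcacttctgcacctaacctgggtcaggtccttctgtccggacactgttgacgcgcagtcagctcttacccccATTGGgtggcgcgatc
B2m, chr2:122147437-122147686, plus strand: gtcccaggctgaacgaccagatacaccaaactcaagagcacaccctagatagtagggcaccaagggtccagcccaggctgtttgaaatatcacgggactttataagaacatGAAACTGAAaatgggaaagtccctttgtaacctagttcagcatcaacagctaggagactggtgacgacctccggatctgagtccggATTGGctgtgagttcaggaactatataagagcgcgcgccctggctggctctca
H2-Aa, chr17:34287824-34288073, minus strand: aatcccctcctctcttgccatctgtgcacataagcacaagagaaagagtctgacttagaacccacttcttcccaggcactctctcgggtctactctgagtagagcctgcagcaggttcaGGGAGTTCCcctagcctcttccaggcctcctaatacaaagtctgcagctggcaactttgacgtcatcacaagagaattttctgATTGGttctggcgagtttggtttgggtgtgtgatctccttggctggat
H2-Eb1, chr17:34305617-34305866, plus strand: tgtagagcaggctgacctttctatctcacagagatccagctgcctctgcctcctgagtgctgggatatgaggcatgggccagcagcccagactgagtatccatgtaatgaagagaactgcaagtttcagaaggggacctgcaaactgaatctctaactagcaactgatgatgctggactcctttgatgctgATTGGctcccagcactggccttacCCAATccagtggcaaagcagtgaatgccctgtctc
A promoter entry was at hand for 7 of the 10 genes, which leaves Tap2, H2-Ab1, and Cd74 without one. CCAAT was present in all 7, compared with 33.8% of 32851 promoters of the same length. It began 16 bases before the start in H2-K1, 53 bases before it in B2m, and 48 bases before it in H2-Aa. GGGNNTTCC was found in H2-K1, H2-D1, and H2-Aa (3 of 7, compared with 4.98% of promoters), in H2-K1 and H2-D1 with the same letters, GGGGATTCC. GAAANNGAA was found in B2m (1 of 7, compared with 7.13% of promoters). Only these exact patterns were searched, so a promoter without a match, B2m for NF-kB included, may still carry an NF-kB or IRF site. These matches describe the letters in the window and are not evidence of binding.

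The chains of class I were expressed at high levels in all 6 libraries. The highest library exceeded the lowest 1.48-fold for B2m, 1.33-fold for H2-D1, and 1.265-fold for H2-K1. B2m, the light chain of every class I molecule, was at 605.14, 463.24, and 409.12 TPM in RvD1 replicates 1 to 3 and at 489.85, 468.10, and 412.55 TPM in vehicle replicates 1 to 3. H2-D1, a classical heavy chain, was at 325.98, 266.40, and 260.74 TPM with RvD1 and at 293.94, 274.23, and 244.47 TPM with vehicle. H2-K1, the other classical heavy chain of this strain, was at 196.09, 155.62, and 159.36 TPM with RvD1 and at 172.13, 154.98, and 177.77 TPM with vehicle. The groups overlapped for all 3, and RvD1 replicate 1 was the highest library for each of them. The ratio of H2-K1 to H2-D1 in TPM lay between 0.565 and 0.727, and that of B2m to the sum of the heavy chains between 0.974 and 1.16. A share of 6.91% of the 76-base words in the H2-D1 transcript, and 1.42% of those in H2-K1, also occur in transcripts of other genes, most of them class I relatives, so their counts depend in part on how RSEM divided such reads. The share was 4.76% for Tap1, 8.82% for Tap2, 17.3% for Tapbp, and 0% for B2m and the class II genes.

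The loading genes were expressed at lower levels than the chains they serve. Tapbp, which holds the empty heavy chain at the transporter, was at 61.15, 42.08, and 47.49 TPM with RvD1 and at 55.80, 52.15, and 38.75 TPM with vehicle. Tap2, a subunit of the peptide transporter, was at 35.04, 28.30, and 35.33 TPM with RvD1 and at 35.02, 32.41, and 23.20 TPM with vehicle. Tap1, its partner subunit, was at 15.77, 9.42, and 13.74 TPM with RvD1 and at 15.20, 15.15, and 7.29 TPM with vehicle. The groups again overlapped, and vehicle replicate 3 was the lowest library for each of these genes.

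Class II genes were detected, but at levels far below those of class I. H2-Eb1, the β chain of the I-E molecule, was at 4.15, 3.23, and 2.54 TPM with RvD1 and at 2.89, 3.04, and 1.24 TPM with vehicle, from 15 to 52 expected counts per library. Cd74, the invariant chain, was at 5.55, 0.59, and 1.37 TPM with RvD1 and at 3.20, 1.92, and 2.32 TPM with vehicle. It lies outside the MHC, on chromosome 18 (60803848 to 60812652). Its counts were 83, 10, and 17 with RvD1 and 39, 20, and 32 with vehicle. RvD1 replicates 1 and 2 therefore held the highest and the lowest level of Cd74, and the vehicle libraries lay between them. H2-Ab1, the β chain of I-A, was at 2.07, 1.71, and 2.48 TPM with RvD1 and at 2.94, 2.49, and 1.96 TPM with vehicle. H2-Aa, the α chain that pairs with H2-Ab1, had 15, 0, and 4 counts with RvD1 and 4, 2, and 2 with vehicle, which was too few for the edgeR test. The 0 counts in RvD1 replicate 2 allow a level of up to 0.107 CPM. The groups overlapped for all 4 genes, as can be seen in the plot of levels by library.

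**Figure D1:**
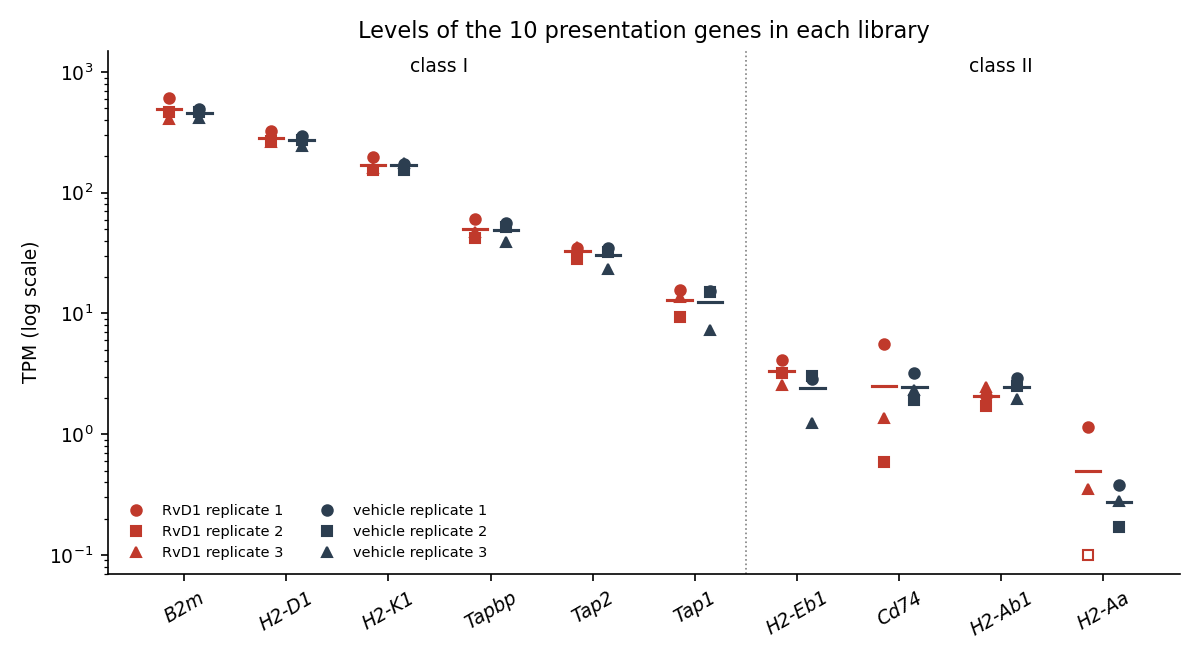
Levels of the 10 genes in TPM (log axis), ordered by their mean over 6 libraries, with 1 point per library and a bar at the mean of each group (n = 3). The open square for H2-Aa stands for a level of 0, drawn at 0.1. Class I genes lie between 7.29 and 605.14 TPM and class II genes between 0 and 5.55 TPM.

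Ordered by mean level over the 6 libraries, B2m came first (475 ± 71.5 TPM, SD, n = 6), followed by H2-D1 (278 ± 28.7), H2-K1 (169 ± 16.1), Tapbp (49.6 ± 8.45), Tap2 (31.6 ± 4.89), and Tap1 (12.8 ± 3.54). H2-Eb1 (2.85 ± 0.955 TPM), Cd74 (2.49 ± 1.74), H2-Ab1 (2.28 ± 0.445), and H2-Aa (0.387 ± 0.394) came last. The ranges of neighboring class I genes did not overlap, nor did those of Tap1 and H2-Eb1. H2-Eb1, Cd74, and H2-Ab1 could not be ordered, since the ranges of these neighbors overlapped. The coefficient of variation over the libraries ran from 9.48% for H2-K1 to 27.8% for Tap1 among class I genes. In class II it was 19.6% for H2-Ab1, 33.5% for H2-Eb1, 69.7% for Cd74, and 102% for H2-Aa.

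No difference between RvD1-treated and vehicle-treated mice passed the test in any of the 10 genes. By the quasi-likelihood test of edgeR, for which 9 of them had enough counts, 3 were higher and 6 lower with RvD1 (7 and 2 with log2(TPM + 1), 5 and 4 with library totals alone), and 0 had a Benjamini-Hochberg adjusted p under 0.05, as was the case for 0% of all 14494 genes tested. The median log2 fold change over all genes moved with these scales as well. It was 0.0145 in edgeR, 0.0764 with log2(TPM + 1), and 0.0499 with library totals alone. An unadjusted p under 0.05 was found in edgeR for 0 of the 9, compared with 3.47% of all genes. In TMM-scaled CPM, the groups were without overlap in 0 of the 9 genes, compared with 4.77% of all genes with RvD1 higher and 4.84% with RvD1 lower. The p values measure the spread between mice, of which there were 3 per group.

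The class I genes gave the narrowest intervals. The log2 fold change of RvD1 over vehicle was −0.06 for H2-K1 (standard error 0.106, 95% interval −0.30 to 0.18, edgeR adjusted p = 0.971). It was −0.02 for H2-D1 (standard error 0.0961, interval −0.24 to 0.20, edgeR adjusted p = 0.992) and 0.03 for B2m (standard error 0.136, interval −0.28 to 0.33, edgeR adjusted p = 0.992). For the chains of class I, then, these libraries bound a difference by those intervals. Values were −0.08 for Tap1 (interval −0.69 to 0.54), 0.05 for Tap2 (interval −0.29 to 0.39), and −0.03 for Tapbp (interval −0.40 to 0.34), with edgeR adjusted p of 0.986 to 0.992. Without RvD1 replicate 1, the median log2 fold change of the 6 class I genes moved from −0.03 to −0.14, 5 of the 6 were lower with RvD1, and 0 had an adjusted p under 0.05. The median over all genes was 0.001 in that setting.

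The class II genes gave wide intervals. The log2 fold change was −0.49 for H2-Ab1 (standard error 0.395, interval −1.39 to 0.40) and 0.44 for H2-Eb1 (standard error 0.390, interval −0.45 to 1.32), each with an edgeR adjusted p of 0.971. These β chains thus pointed in opposite directions, and each kept its direction in all 15 alternative settings in which it was computed. For Cd74 it was −0.07 (standard error 0.729, interval −1.73 to 1.58, edgeR adjusted p = 0.995), a value that depended on single libraries. Without RvD1 replicate 1 it was −1.49, without RvD1 replicate 2 it was 0.42, without RvD1 replicate 3 it was 0.20, and without vehicle replicate 1 it was 0.22. Without vehicle replicate 2 it was −0.30. H2-Aa had a log2 fold change of 0.89 in edgeR without a count filter (adjusted p = 0.885).

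**Figure D2:**
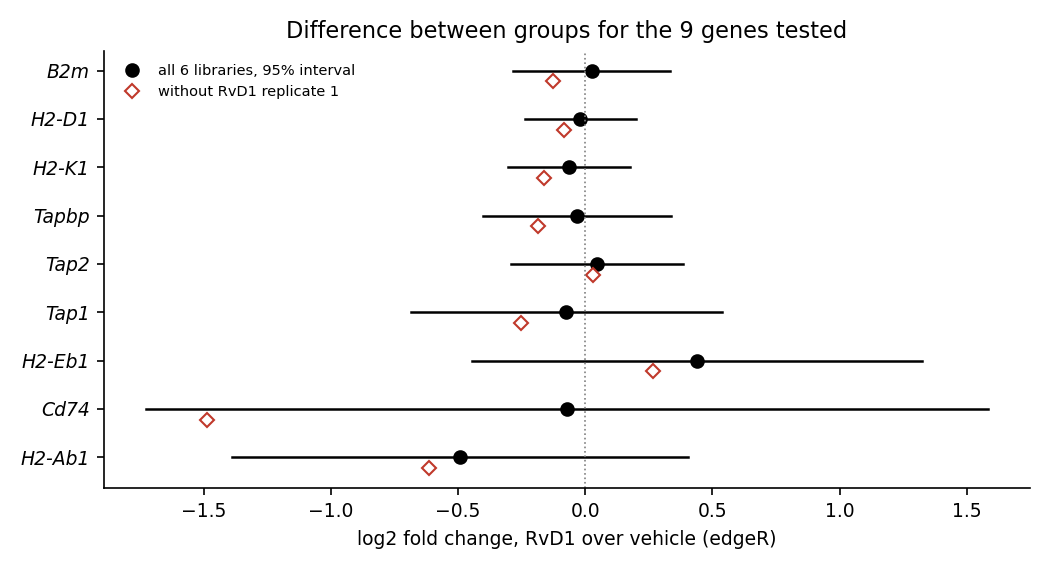
Log2 fold change of RvD1 over vehicle for the 9 genes tested, with the 95% interval from edgeR over all 6 libraries (filled circles and lines) and the value without RvD1 replicate 1 (open diamonds). All intervals cross 0, and Cd74 moves from −0.07 to −1.49 without that library.

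The limma-voom procedure described for the study, which removes surrogate variables estimated from the data, was applied to 26518 genes with 1 surrogate variable. Of the 10 genes, all of which it could test, 0 had an adjusted p under 0.05, compared with 0% of all genes. An unadjusted p under 0.05 was found for 1 of them, compared with 11.2% of all genes. This gene was Cd74, with a log2 fold change of −1.05 (limma unadjusted p = 0.0130, adjusted p = 0.337), where edgeR gave −0.07. Its value also varied without surrogate variables. It was −0.705 in limma-voom without them, −0.495 in edgeR with a replicate block, −0.498 with log2(TPM + 0.1), and −0.241 with log2(TPM + 1). It was −0.078 in DESeq2 and −0.023 in edgeR with library totals alone. Calls appeared where 2 surrogate variables were removed. The test did not count removed variables as fitted terms, so its p values are too small, more so with 2 than with 1. With 2, H2-Aa had an adjusted p under 0.05 in limma (0.0272, log2 fold change −1.12), alongside 6.51% of all genes. In edgeR without a count filter its log2 fold change had the opposite sign, at 0.89. With TMM factors the procedure's own rule also chose 2, and H2-Aa was again called (limma adjusted p = 0.0271). Without RvD1 replicate 1 it chose 2 as well, and 7277 genes were called, or 28.4% of all genes, with H2-K1, H2-D1, Tap1, Tapbp, H2-Ab1, and Cd74 among them, all lower with RvD1. When the number was held at 1, a choice made after seeing the data, 0 genes were called either with TMM factors or without RvD1 replicate 1 (2960 and 4173 genes at an unadjusted p under 0.05).

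The contrast of the classes was next expressed per library. The 6 class I genes summed to 1239, 965, and 926 TPM with RvD1 and to 1062, 997, and 904 TPM with vehicle. The 4 class II genes summed to 12.9, 5.53, and 6.74 TPM with RvD1 and to 9.41, 7.62, and 5.80 TPM with vehicle. For every 1000 TPM of class I there were 10.4, 5.73, and 7.28 TPM of class II with RvD1 and 8.86, 7.64, and 6.42 with vehicle. The means were 7.81 ± 2.39 and 7.64 ± 1.22 (SD, n = 3), a difference smaller than either SD. Without RvD1 replicate 1 the RvD1 mean was 6.50. The median log2 fold change was −0.03 over the 6 class I genes, −0.07 over the 3 class II genes tested, and 0.01 over all genes tested. The difference between the class medians was −0.05. The same difference, taken in log2 CPM within each library, had an SD of 0.433 between libraries of a group. With single libraries left out, the difference between the medians ran from −0.47 (without RvD1 replicate 1) to 0.37.

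The makeup of the class II reads differed between libraries, with intervals of counting error that did not all overlap. Cd74 made up 47.4% of the class II counts in RvD1 replicate 1 (95% Wilson interval 40.2 to 54.8), 11.0% in replicate 2 (6.08 to 19.1), and 27.4% in replicate 3 (17.9 to 39.6). Its share with vehicle was 39.4% (30.3 to 49.2), 25.0% (16.8 to 35.5), and 48.5% (36.9 to 60.3) in replicates 1 to 3. The interval of RvD1 replicate 2 lay below those of RvD1 replicate 1 and of vehicle replicates 1 and 3. H2-Eb1 showed the inverse order at its extremes, with 57.1% of the counts in RvD1 replicate 2 (46.9 to 66.8) and 22.7% in vehicle replicate 3 (14.3 to 34.2). The shares of a library are parts of the same total, so a low Cd74 share raises the others. In CPM, H2-Eb1 was higher in RvD1 replicate 1 (2.264) than in RvD1 replicate 2 (1.855). Reads were amplified without molecular identifiers, so these intervals describe counting error only.

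**Figure D3:**
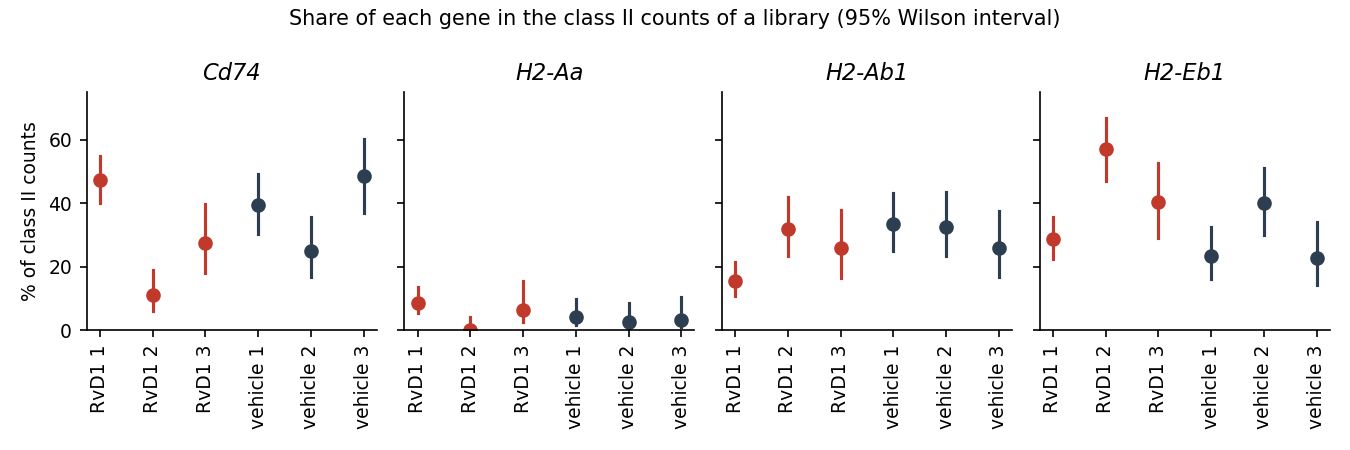
Percentage of the class II counts of a library that came from each of the 4 class II genes, with 95% Wilson intervals (RvD1 in red, vehicle in blue). The Cd74 share runs from 11.0% in RvD1 replicate 2 to 48.5% in vehicle replicate 3, and the H2-Eb1 share is highest in RvD1 replicate 2, at 57.1%.

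Genes of the cells that make class II were read in the same libraries. Ptprc (CD45), against which the gate was set, had 16, 6, and 24 counts with RvD1 and 22, 8, and 25 with vehicle. The 5 pan-leukocyte markers summed to 13.9 to 17.7 TPM with RvD1 and to 15.7 to 21.3 TPM with vehicle, and the log2 fold change of all 5 was below 0, with 1 at an unadjusted p under 0.05 in edgeR (Tyrobp, compared with 3.47% of all genes) and 0 at an adjusted p under 0.05. The 12 macrophage markers summed to 31.4 to 56.8 TPM with RvD1 and to 48.5 to 87.5 TPM with vehicle. Of the 10 macrophage markers tested, all 10 had log2 fold changes below 0, 3 had an unadjusted p under 0.05 in edgeR (Lyz2, C1qb, and Ms4a7), and 0 had an adjusted p under 0.05, where 46.5% of all genes were lower and 3.47% had such an unadjusted p. In edgeR without a count filter, Lyz2 had an adjusted p of 0.0182 (log2 fold change −1.07), where 0.045% of all genes were called. Cd68 ranged over 4.87 to 10.6 TPM in RvD1 and 7.24 to 11.0 TPM in vehicle libraries, Adgre1 (F4/80) at 0.22 to 0.82 and 0.70 to 1.48 TPM, Csf1r at 0.82 to 1.35 and 1.05 to 1.61 TPM, and Itgam (CD11b) at 0.18 to 0.80 and 0.17 to 0.77 TPM. In these bulk libraries, fewer cells of a type and less RNA per cell cannot be told apart.

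The defining dendritic cell genes Itgax and Flt3 were at or near 0. Itgax (CD11c) had 4, 6, and 0 counts with RvD1 and 5, 0, and 1 with vehicle, and Flt3 had 2 counts in RvD1 replicate 3 and 0 in the other libraries. Of the 8 dendritic cell markers only Zbtb46 had enough counts to be tested (log2 fold change −0.22), and Cd209a was at 0 in every library. Zbtb46 was at 3.94, 4.98, and 4.74 TPM with RvD1 and at 4.97, 5.11, and 4.74 TPM with vehicle. It made up most of the sum of the 8 markers, which was 4.33 to 5.71 TPM with RvD1 and 5.52 to 5.91 TPM with vehicle. Cd79a, a subunit of the B-cell receptor, was the 1 of 5 B-cell markers that could be tested, with 39, 26, and 12 counts with RvD1 and 23, 10, and 7 with vehicle. The 5 B-cell markers summed to 0.89 to 2.72 TPM with RvD1 and to 0.57 to 1.93 TPM with vehicle, and of the 5 T-cell and 5 neutrophil markers 0 were tested.

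Markers of other cell types were read as well, and their part in the values above was not tested. Of 4 mural markers, 4 were higher with RvD1, compared with 53.5% of all genes. Abcc9, 1 of them, did not overlap between groups, as was the case for 4.77% of all genes with RvD1 higher. Its log2 fold change was 0.99 (edgeR unadjusted p = 0.00529, adjusted p = 0.971). Of 6 endothelial markers, 1 was higher and 5 lower (median log2 fold change −1.07), where 46.5% of all genes were lower. At an unadjusted p under 0.05 in edgeR there were 0 of them, compared with 3.47% of all genes. Of the 5 fibro-adipogenic markers tested, 4 were higher and 1 lower, the latter Ly6a (Sca-1), with a log2 fold change of −0.62 (edgeR unadjusted p = 0.0141, adjusted p = 0.971). Without RvD1 replicate 1, 2 of these 5 were higher and 3 lower. An adjusted p under 0.05 was found for 0 of the markers in these lists. Of 3 erythroid markers tested, 3 were lower, and 1 was lower without that library.

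Set against these sums, class II did not follow the order of the macrophage sum. Vehicle replicate 3 had the highest macrophage sum (87.5 TPM), and its class II sum was the second lowest of the 6 (5.80 TPM). Lyz2 alone made up 61.06 TPM of that macrophage sum. The order therefore reflects mostly 1 gene, and the macrophage markers were not summed without it. RvD1 replicate 1 had the highest class II sum (12.9 TPM) and the highest B-cell sum (2.72 TPM), with the lowest pan-leukocyte sum (13.9 TPM). The cells that contributed the class II reads were not identified, and the part of any such cells in the values above was not tested.

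**Figure D4:**
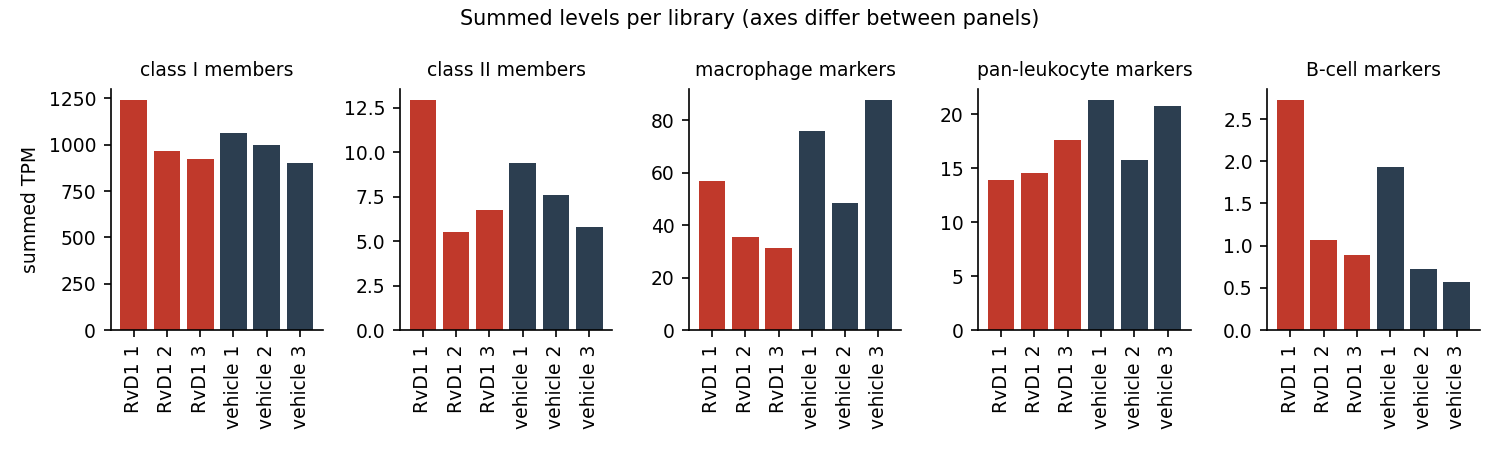
Summed TPM per library of the 6 class I genes, the 4 class II genes, and the macrophage, pan-leukocyte, and B-cell markers, with an axis from 0 in each panel (RvD1 in red, vehicle in blue). RvD1 replicate 1 has the highest class I (1239 TPM), class II (12.9 TPM), and B-cell sums. Vehicle replicate 3 has the highest macrophage sum (87.5 TPM, of which Lyz2 made up 61.06 TPM).

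The wider pathway was covered by 12 lists with 69 genes, the 10 above included. Of the 47 genes tested, 21 were higher and 26 lower with RvD1, 0 had an adjusted p under 0.05 in edgeR, and 1 had an unadjusted p under 0.05 (3.47% of all genes), with a median log2 fold change of −0.02 compared with 0.01 over all genes. The balance depended on the scale, with 25 higher and 22 lower with library totals alone, and 28 higher and 16 lower of 44 with log2(TPM + 1). In these 2 settings the median over all genes was 0.0499 and 0.0764. The groups did not overlap for 3 of the 47 with RvD1 lower (Ctss, Psmb10, and Erap1, compared with 4.84% of all genes) and for 0 with RvD1 higher (4.77% of all genes). Without RvD1 replicate 1, 11 of 47 were higher and 36 lower, with 0 called, and the median over all genes was 0.001. That library was the highest for 24 of the 47 genes (51.1%, compared with 30.6% of all genes). It was the lowest for 6 (12.8%, compared with 29.5% of all genes). RvD1 replicate 3 was the lowest for 16 (34%, compared with 17.3%) and vehicle replicate 3 for 15 (31.9%, compared with 19.2%).

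Among the class I genes, 1 of 8 for transport and loading was higher and 7 lower. The most abundant were the chaperones of the loading complex. Pdia3 (ERp57) averaged 684 ± 1.91 TPM in RvD1 and 655 ± 3.72 TPM in vehicle libraries (SD, n = 3), Calr (calreticulin) at 721 ± 38.2 and 698 ± 34.3 TPM, and Canx (calnexin) at 338 ± 14.2 and 331 ± 10.1 TPM. Pdia3 was higher with RvD1 in TPM and its log2 fold change from counts was −0.07 (standard error 0.0858, edgeR adjusted p = 0.971), so its direction depends on the scale. Erap1, which trims peptides for class I, did not overlap between groups in CPM (log2 fold change −0.13, edgeR adjusted p = 0.971) but did in TPM, where its levels spanned 13.7 to 28.5 in RvD1 libraries and 16.9 to 25.2 in vehicle libraries.

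Of 5 genes of the immunoproteasome, the interferon-inducible form of the proteasome, and its activator, 1 was higher and 4 lower. Psmb10, a catalytic subunit, was at 57.70, 70.77, and 71.40 TPM with RvD1 and at 83.11, 81.40, and 77.26 TPM with vehicle, without overlap between groups. Its log2 fold change was −0.29 (standard error 0.132, edgeR adjusted p = 0.971). The activator subunits Psme1 and Psme2 were at 122 ± 11.2 and 225 ± 23.1 TPM with RvD1 and at 130 ± 12.7 and 250 ± 31.7 TPM with vehicle.

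The nonclassical and class I-like heavy chains comprised 24 genes, of which 12 were tested, with 8 higher and 4 lower (2 and 10 without RvD1 replicate 1), and H2-Q8, H2-Q9, and H2-T9 were not found under these symbols. Fcgrt, the neonatal Fc receptor, was at 100.29, 39.29, and 44.31 TPM with RvD1 and at 60.47, 50.35, and 33.23 TPM with vehicle. Its log2 fold change was 0.26, and −0.27 without RvD1 replicate 1. Reads of the H2-Q and H2-T genes, a multigene family, may be shared among them, and their counts are uncertain. H2-T23 (Qa-1) was at 19.0 ± 8.62 and 17.2 ± 7.11 TPM and H2-T22 at 13.8 ± 3.37 and 14.5 ± 1.86 TPM (SD, n = 3). Of the 4 class I regulators, 3 were higher and 1 lower, and 0 and 4 without RvD1 replicate 1. Irf1, an interferon-induced factor, was at 110.77, 47.92, and 68.04 TPM with RvD1 and at 71.96, 55.05, and 42.74 TPM with vehicle (log2 fold change 0.32, standard error 0.270, edgeR adjusted p = 0.971, and −0.024 without RvD1 replicate 1). Irf2, a related factor, was at 16.9 ± 7.74 and 16.0 ± 2.67 TPM (SD, n = 3).

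In the class II pathway, Ctss was the gene with an unadjusted p under 0.05. Ctss encodes cathepsin S, a protease that degrades the invariant chain and is abundant in macrophages. It was at 3.96, 2.86, and 2.90 TPM with RvD1 and at 6.80, 6.23, and 10.36 TPM with vehicle, and every RvD1 library lay below every vehicle library. Its log2 fold change was −1.36 (standard error 0.282, edgeR unadjusted p = 0.00101 and adjusted p = 0.971), so the difference did not pass the correction over all genes. The other endosomal genes were Lgmn (58.0 ± 17.5 and 55.7 ± 3.10 TPM, SD, n = 3) and Ifi30 (13.1 to 14.8 TPM with RvD1 and 10.9 to 13.2 TPM with vehicle). The peptide editor H2-DMa was at 2.02 ± 0.632 and 2.14 ± 0.319 TPM, and its partner H2-DMb1 at 0.530 ± 0.295 and 0.417 ± 0.0643 TPM.

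Ciita, the master regulator of class II, had 3.01, 9, and 1 counts with RvD1 and 0, 3, and 4 with vehicle. H2-Oa, H2-Ob, H2-Eb2, and H2-Ea-ps had 0 counts in every library. The last is the remnant of the I-E α chain, which C57BL/6 mice do not make, so that in this strain H2-Eb1 has no partner. Of the 7 RFX, NF-Y, and related factors, which act on both classes, 4 were higher and 3 lower. Nfyc ranged over 111.44 to 134.19 TPM in RvD1 and 118.52 to 132.36 TPM in vehicle libraries, Rfxap was at 64.2 ± 6.00 and 66.1 ± 3.46 TPM, and Nfyb at 44.9 ± 3.46 and 46.8 ± 2.88 TPM. Of the 3 costimulatory genes, Cd80 was at 1.05 ± 0.347 and 0.963 ± 0.0907 TPM, Cd40 at 0.487 ± 0.175 and 0.403 ± 0.0493 TPM, and Cd86 at 0.103 ± 0.111 and 0.0967 ± 0.142 TPM.

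**Figure D5:**
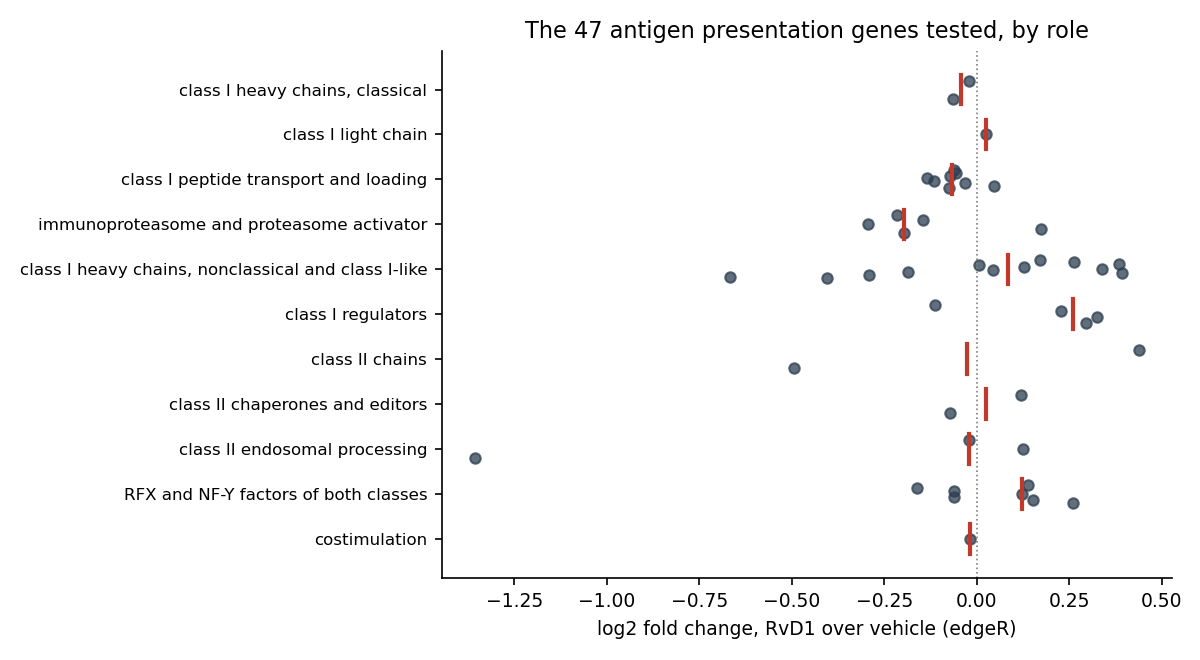
Log2 fold change of RvD1 over vehicle (edgeR) for the 47 pathway genes tested, with 1 point per gene, grouped by role, and a red bar at the median of each list. All but H2-Q6 (−0.67) and Ctss (−1.36) lie within 0.5 of 0.

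Finally, the genes whose pattern over the 6 libraries was nearest to that of Cd74 and of H2-K1 were listed, by the root mean square difference of centered log2 CPM. For Cd74 they were Abcg1 (0.316), Park2 (0.339), Scn3a (0.353), Umodl1 (0.355), and Slc12a8 (0.369), with mean levels of 0.300 to 1.32 TPM. H2-Ab1 ranked 2701 and H2-Eb1 11205 of the 14493 genes compared, far from the nearest. Class I genes ranked 1740 (Tapbp), 2361 (H2-K1), 2680 (Tap1), 2805 (B2m), 4002 (H2-D1), and 5330 (Tap2). The measure also counts the size of the variation, and Cd74 itself differed by 0.982 from a flat pattern. The ranks therefore do not show whether the class II genes rose and fell together. For H2-K1 they were Cnksr3 (0.0206), 2010111I01Rik (0.0288), Atp8b2 (0.0321), Fam63a (0.0358), and Mkrn1 (0.0367), and H2-D1 ranked 182. These lists describe 6 libraries and carry no test.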

How the data were processed

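RNA-Seq was performed on FACS-sorted MuSCs of 3 RvD1-treated and 3 vehicle-treated mice. The authors aligned reads to mm10 with STAR 2.5.0a and estimated gene levels with RSEM. Of the deposited values, the expected counts are unscaled RSEM estimates, and in the TPM values the authors had corrected for transcript length and library. FPKM values were not used. RNA input and integrity differ between the labels and the paper.

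Expected counts, rounded, were tested with the quasi-likelihood test of edgeR 4.0.16 (R 4.3.3, TMM, filterByExpr, Benjamini-Hochberg over all genes, threshold 0.05). The study's procedure used limma 3.58.1 voom and sva 3.50.0 on genes with at least 1 expected count. Alternatives included DESeq2 1.42.0, other scalings and filters, log2(TPM + 1) and log2(TPM + 0.1) in limma, a replicate block, and single libraries left out. All tests were run on simulated data first. Locations are from GENCODE M21 (GRCm38).

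The genes and lists were chosen with earlier results of these data known. Named genes were all 10 genes, pathway genes with an unadjusted p under 0.05, the 3 most abundant per list, 9 defining markers, and the 5 nearest in pattern to Cd74 and to H2-K1. Psmb10, Erap1, Ciita, H2-Oa, H2-Ob, H2-Eb2, H2-Ea-ps, Zbtb46, Cd209a, Lyz2, C1qb, Ms4a7, Tyrobp, H2-Q6, Dcn, Abcc9, Ly6a, Myod1, Des, and the genes named under alternative settings were added after their values were seen. Of the genes this rule names, 2 are not reported here.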

Additional observations from a re-analysis of the deposited data

How the results depend on the processing

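At an adjusted p under 0.05, edgeR called 0 genes (503 at an unadjusted p under 0.05) and DESeq2 0 (474 at an unadjusted p under 0.05). The count was 12 with edgeR without a count filter, 1 (Snord32a) with log2(TPM + 0.1), and 0 to 1 with single libraries left out (Pagr1a, without RvD1 replicate 3). The macrophage marker Lyz2 was among the 12 (log2 fold change −1.07, edgeR adjusted p = 0.0182). With limma-voom after surrogate variable removal it was 0, and it became 1727 with 2 surrogate variables, 1989 with TMM factors, and 0 to 7277 with single libraries left out. The number of surrogate variables removed was 1 in the fit reported and 2 with TMM factors and without RvD1 replicate 1, which gave the 7277. Held at 1, both gave 0. Without RvD1 replicate 3 it was 6. The 4 genes without vehicle replicate 2 were Smt3h2-ps4, Gm20683, Gm2274, and Gm45507. The replicate numbers belong to different mice, and whether they mark a shared batch cannot be told from 3 libraries per group. Deviations of same-numbered libraries from their group means correlated at 0.310, −0.001, and 0.126. With the number as a block, edgeR called 0 genes and limma-voom without surrogate variables 30.

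The direction of several fold changes near 0 turned with the scale. The median over all genes also moved, from 0.0145 in the edgeR fit reported to 0.0764 with log2(TPM + 1). It was 0.0416 with log2(TPM + 1) without a filter, 0.0819 with log2(TPM + 0.1), and 0.0499 with library totals. H2-K1 was at 0.012 with log2(TPM + 1), with or without a filter, and with log2(TPM + 0.1). H2-D1 was at 0.067 in these 3 settings and at 0.016 with library totals. Tap1 was at 0.083 with log2(TPM + 1), with or without a filter, and at 0.093 with log2(TPM + 0.1). Tapbp was at 0.038 and 0.039 in those settings and at 0.005 with library totals. With single libraries left out, log2 fold changes ranged from −0.082 to 0.035 for H2-D1, from −0.127 to 0.145 for B2m, from −0.334 to 0.126 for Tap1, from −0.101 to 0.132 for Tap2, from −0.187 to 0.077 for Tapbp, and from −1.486 to 0.425 for Cd74. The cause was not tested. Counts of 10 to 83 per library limit what can be read of Cd74.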
